A study of Mus musculus with 8 samples.

Results

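The genes of antigen presentation were followed in the livers of 8 male mice. The set was every gene whose symbol begins with H2-, the mouse major histocompatibility complex (MHC), other than pseudogenes, together with B2m, Tap1, Tap2, Tapbp, Tapbpl, Psmb8, Psmb9, Psmb10, Nlrc5, Ciita, Cd74 and Erap1. These were 46 of the 56953 gene identifiers counted, and 34 of the 46 had enough reads to be tested. Of the 46 genes, 38 had at least 1 count in some library. The rule that defines the set uses names and not values, but it was chosen with earlier results of these data known.

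For 8 weeks both groups were fed CDHFD, a high-fat feed without choline on which mice develop steatosis, inflammation and scarring of the liver. The 4 control mice carried the wild-type genotype (WT), and the 4 HSC-PCK1-KO mice lacked PCK1, the cytosolic phosphoenolpyruvate carboxykinase, in hepatic stellate cells. Stellate cells store vitamin A and, once activated by injury, lay down collagen. The study's design text calls the samples of a group biological replicates and the mice adult, and the labels put all libraries in 1 batch. Strain, exact age, and the promoter that drove the deletion were not given in the sources used here, and no group on a normal diet was analysed here. The tissue was whole liver, so a gene with fewer reads can reflect fewer cells of a type or less RNA per cell, which cannot be told apart. Hepatocytes, the main cell of the liver, also express Pck1, so the level of Pck1 in whole liver checks nothing about a deletion in stellate cells.

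MHC class I molecules sit on nearly all nucleated cells and show fragments of the cell's own proteins to CD8 T cells. The fragments are cut by the proteasome, whose catalytic subunits are exchanged for Psmb8, Psmb9 and Psmb10 under interferon-gamma, then carried into the endoplasmic reticulum by Tap1 and Tap2, trimmed by Erap1, and loaded with the help of tapasin (Tapbp) onto a heavy chain paired with beta-2-microglobulin (B2m). MHC class II molecules are made mainly by dendritic cells, B cells and macrophages and show fragments of engulfed material to CD4 T cells. The invariant chain (Cd74) guards their groove, H2-DM exchanges its remnant for peptide, and H2-O restrains H2-DM. Ciita is the transactivator that switches class II genes on, and Nlrc5 is its class I counterpart.

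Library totals ranged from 44695439 to 49477255 counts. Levels are given in CPM, the counts after scaling for the total of each library and for its TMM normalization factor. Hepatocyte marker genes summed to 76310 to 99930 CPM, and no marker of the cell types used here was at 0 in every library. For the 7 class II genes of at least 1 CPM, control 4 and HSC-PCK1-KO 4 were above the other 6 libraries, and HSC-PCK1-KO 1 was the lowest for 6 of the 7, all but H2-Ob. Results that rest on control 4 and HSC-PCK1-KO 4 are therefore given with and without them.

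Promoter sequences are shown first, because class I and class II genes are known for a shared type of promoter element. The part of this element in the levels of these livers was not tested. The element consists of an X box, bound by the RFX complex, and a Y box, bound by NF-Y, and is the landing site of Ciita and Nlrc5. Windows of 300 bases around the start site, from RefSeq on GRCm38.p6, were found for 38 of the 46 genes. H2-Ab1, Cd74 and Ciita were among the genes without a window. For the set, tested genes with a window were counted, and a gene counted if any of its windows held the motif. The shares over all windows count windows instead. H2-DMa and H2-K1 had 2 windows each. The Y box (ATTGG, searched on both strands) was present for all 8 class II genes, although 1 window of H2-DMa lacked it. It was present for 10 of 11 class I heavy chain genes and in 37.4% of the 32851 windows of that length. The end of the X box (ACNGATG, both strands) was present for 6 of the 8 class II genes, for 6 of the 11 class I heavy chain genes and in 9.85% of all windows. An X box end followed by a Y box on the same strand, with 28 to 31 bases from start to start, occurred in 17 of all windows (0.0517%), which belong to 16 genes. Of these 16 genes, 9 were in the set: H2-D1, H2-M3, H2-Q4, H2-Q6 and H2-Q7 of class I, and H2-DMb1, H2-DMb2, H2-Eb1 and H2-Eb2 of class II. That spacing was chosen after the matches were seen, so the share describes these windows and tests nothing.

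The next 3 stretches of 59 bases come from class II promoters, with motif matches in capitals. H2-Eb1 lies at chr17:34305767-34305825 on the plus strand and H2-DMb1 at chr17:34153088-34153146 on the plus strand, and in both the capitals mark ACNGATG and then ATTGG. H2-Aa lies at chr17:34287855-34287913 on the minus strand, and its capitals mark TGACG, the core of the X2 box next to the X box, and then ATTGG. All stretches read 5′ to 3′ along the gene's own strand.
H2-Eb1: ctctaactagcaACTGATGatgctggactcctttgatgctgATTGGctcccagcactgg
H2-DMb1: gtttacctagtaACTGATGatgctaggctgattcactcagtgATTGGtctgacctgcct
H2-Aa: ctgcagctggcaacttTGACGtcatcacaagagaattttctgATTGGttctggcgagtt

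The matching stretches of 4 class I genes are shown because H2-Q10, the class I gene with the most counts, differed from its neighbours there. H2-D1 lies at chr17:35262976-35263034 and H2-Q7 at chr17:35439074-35439132, both on the plus strand, with ACNGATG and ATTGG in capitals. In both, a TGACG match overlaps the last bases of the X box end. H2-K1 lies at chr17:34000347-34000405 on the minus strand, with TGACG and ATTGG in capitals. H2-Q10 lies at chr17:35469971-35470029 on the plus strand and was placed by its likeness to H2-D1. It has no capitals, since its window held neither ATTGG nor ACNGATG nor TGACG on either strand, which says only that these letters are not in the window.
H2-D1: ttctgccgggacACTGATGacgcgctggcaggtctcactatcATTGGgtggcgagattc
H2-Q7: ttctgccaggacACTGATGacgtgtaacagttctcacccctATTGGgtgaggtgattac
H2-K1: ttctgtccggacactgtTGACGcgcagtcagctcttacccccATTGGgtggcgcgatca
H2-Q10: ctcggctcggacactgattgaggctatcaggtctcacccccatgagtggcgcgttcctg

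The TGACG motif (both strands) was present for 7 of 11 class I heavy chain genes and in 20.8% of all windows. It was present for only 1 of 8 class II genes, H2-Aa, so the H2-Aa stretch is not typical of class II in this respect. The kappa B motif (GGGNTTCC, both strands) was present for 5 of 11 class I heavy chain genes, namely H2-D1, H2-K1, H2-Q6, H2-Q7 and H2-Q10. It was present for 0 of 8 class II genes and in 5.83% of all windows. It was on both strands in H2-D1, H2-K1, H2-Q6 and H2-Q7 and on the minus strand alone in H2-Q10. The interferon-stimulated response element, searched on both strands, was in the windows of H2-T22, H2-T23, B2m and Erap1, against 3.44% of all windows.

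Setting HSC-PCK1-KO livers against control livers asks whether loss of PCK1 in stellate cells came with a different level of antigen presentation genes in the whole liver. No difference between the genotypes was detected in any of the 34 tested genes. With edgeR's quasi-likelihood test, 0 of 34 passed an adjusted p of 0.05, where 0 of all 15669 tested genes (0%) did, and every one of the 34 had an adjusted p of 0.9998. At an unadjusted p under 0.05 the count was 0 of 34, against 370 of all tested genes (2.36%), and in 0 of 34 did the groups fail to overlap, against 240 of all tested genes (1.53%). DESeq2 called 0 of 34 at an adjusted p of 0.05, against 6 of all tested genes (0.0383%), and 0 of 34 at an unadjusted p under 0.05, against 366 genes (2.34%). With limma-voom, 0 of 34 passed either threshold, against 0 (0%) and 384 genes (2.45%).

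Directions were mixed and followed single livers. The level was lower in HSC-PCK1-KO in 20 of 34 genes (58.8%), against 51.8% of all tested genes. Without control replicate 4 it was lower in 7 of 34, against 49.1% of all genes, and without HSC-PCK1-KO replicate 4 in 28 of 34, against 52.1%. The count at an unadjusted p under 0.05 became 5 without HSC-PCK1-KO replicate 4 (H2-Q7, Nlrc5, Psmb8, H2-Q6 and H2-DMb1, all lower in HSC-PCK1-KO, against 3.1% of all genes). It became 1 without control replicate 4 (H2-Oa, higher, against 2.47% of genes) and 1 without both (H2-Q7, lower, against 2.78%), where 24 of the 32 genes still tested were lower, against 50.5% of all genes. With the replicate number as a block it was 0, against 1.98% of all genes. None of these passed after adjustment in edgeR.

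How closely a difference was bounded depended on the group of genes. The 95% interval of the fold change excluded a 2-fold difference in both directions for 11 of 13 class I heavy chains and for 10 of the 11 genes of B2m, peptide supply, loading and transactivation. It did so for 2 of 10 class II genes. The plot of fold changes shows these intervals.

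**Figure D1:**
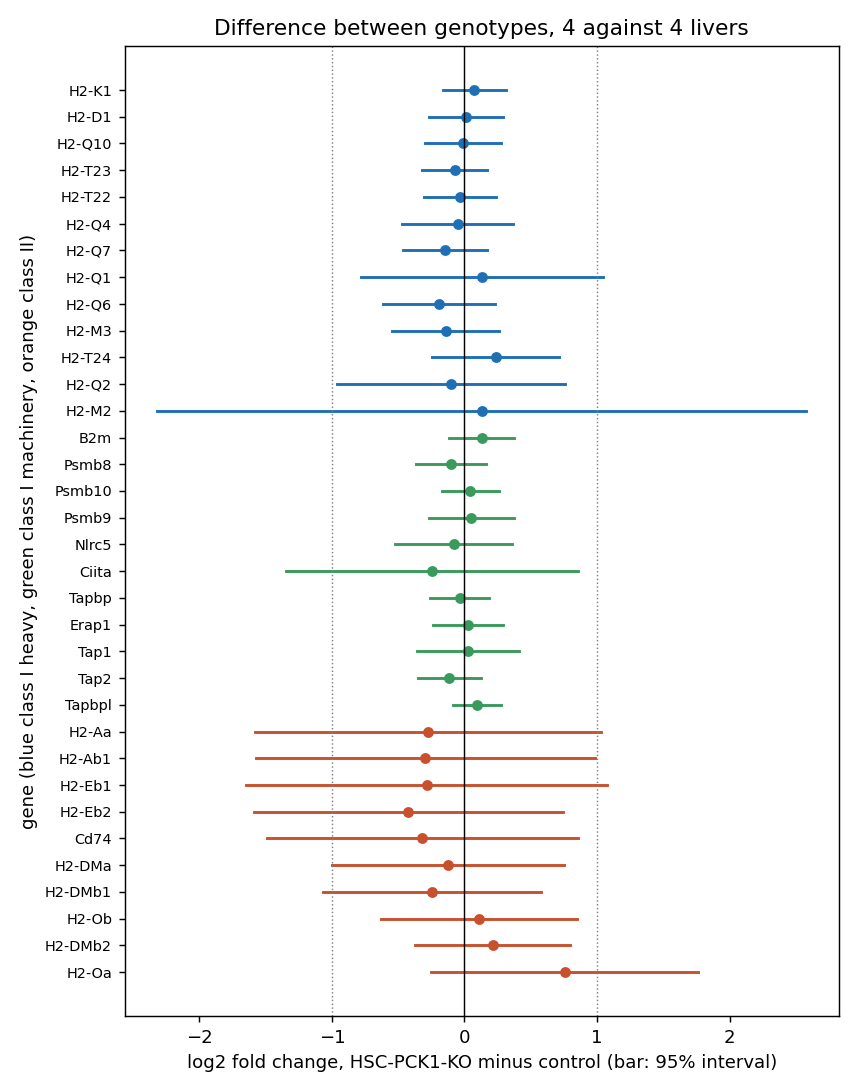
Log2 fold change (HSC-PCK1-KO minus control, horizontal axis) of the 34 tested genes (vertical axis) in edgeR's fit, with the 95% interval as a bar and dotted lines at a 2-fold difference. All intervals include 0, and the bars of the class II genes and of H2-M2 are wide.

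The classical class I heavy chains, which present peptides to CD8 T cells, were abundant, and H2-K1 was more even between livers than H2-D1. The SD of log2 CPM within genotypes was 0.13 for H2-K1 and 0.19 for H2-D1. The median over all tested genes of at least 1 CPM was 0.15. H2-K1 (ENSMUSG00000061232.17, chromosome 17) stood at 1681, 1558, 1793 and 1660 CPM in control 1 to 4 and at 1694, 1562, 1725 and 2062 CPM in HSC-PCK1-KO 1 to 4. HSC-PCK1-KO 4 was the highest and the other 7 libraries lay within one range, so the groups overlapped. The log2 fold change of H2-K1 was 0.07 (SE 0.11, 95% interval -0.16 to 0.31). H2-D1 (ENSMUSG00000073411.13) stood at 696, 609, 687 and 888 CPM in controls and at 735, 645, 704 and 818 CPM in HSC-PCK1-KO. Control 4 was the highest and HSC-PCK1-KO 4 the next. The log2 fold change of H2-D1 was 0.01 (SE 0.13).

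H2-Q10 (ENSMUSG00000067235.15) encodes a soluble class I heavy chain that the liver secretes. It stood at 3082, 2295, 2441 and 2703 CPM in controls and at 2680, 2963, 2632 and 2176 CPM in HSC-PCK1-KO, a log2 fold change of -0.01 (SE 0.13, 95% interval -0.29 to 0.28). HSC-PCK1-KO 4, the highest library for H2-K1, was the lowest for H2-Q10. H2-Q10 was the only one of 11 class I heavy chains of at least 1 CPM with its lowest level in that library.

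Levels between genes are compared per kilobase of merged exons. B2m stood at 1623 CPM per kilobase (1412 to 1939 over the 8 libraries), H2-Q10 at 602.9 (500.4 to 709), H2-K1 at 584 (530.1 to 702), H2-D1 at 280.2 (236 to 344) and H2-T23 at 72.2 (61.1 to 86.1). The ranges of H2-Q10 and H2-K1 overlapped, and those of the other neighbours in this order did not. Of the summed class I heavy chain level per kilobase, H2-Q10 held 37% (29.2% to 42.4% over libraries), H2-K1 35.8% (32.9% to 40.9%) and H2-D1 17.1% (15.6% to 20.1%). Per kilobase of the longest protein-coding transcript, a length chosen after the values were seen, H2-Q10 stood at 1316 (1093 to 1548), H2-K1 at 1061 (962 to 1274) and H2-D1 at 344, in the same order. The plot of levels per length shows both measures.

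**Figure D2:**
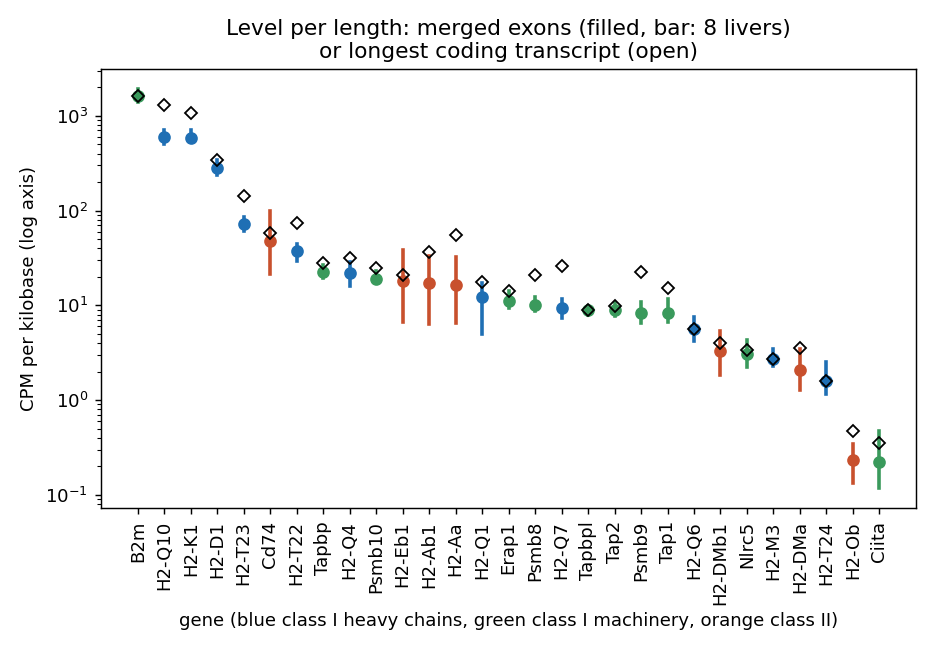
Mean CPM per kilobase (log axis) of the 29 genes with a mean of at least 1 CPM, per merged exon length (filled points, with bars from the lowest to the highest of 8 libraries) and per longest coding transcript (open diamonds). B2m, H2-Q10, H2-K1 and H2-D1 lie above all others, and the bars of Cd74, H2-Aa, H2-Ab1 and H2-Eb1 are long.

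The nonclassical heavy chains ranged from near 0 to the level of H2-Q10. H2-T23, which encodes Qa-1, the ligand of the natural killer receptor CD94/NKG2A, stood at 197 to 227 CPM in controls and 176.5 to 248.8 CPM in HSC-PCK1-KO (log2 fold change -0.08, SE 0.11). H2-T22, a ligand of some gamma-delta T cell receptors, stood at 118 to 144 CPM against 101.5 to 153 CPM (-0.03, SE 0.12). H2-Q7, which encodes Qa-2, stood at 35.8 to 45.4 CPM against 31.5 to 50.1 CPM (-0.15, SE 0.14), and its neighbour H2-Q6 at 9.84 to 15.7 CPM against 8.77 to 14.9 CPM (-0.19, SE 0.19). In all 4 genes HSC-PCK1-KO 4 was above the other 3 HSC-PCK1-KO livers.

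Some of these genes share sequence with near copies, and how reads that match several places were counted is not given in the sources used here. Of the 100-base windows of the longest transcript, 16.4% of H2-Q7, 10.8% of H2-Q6, 14.2% of H2-T22, 13.1% of H2-Q1, 7.28% of H2-T23 and 4.64% of H2-D1 occur in another gene's transcript, against 2.06% of H2-Q10 and 0% of H2-K1. The levels of H2-Q6, H2-Q7, H2-Q1 and H2-T22 are therefore uncertain. The number of H2-Q and H2-T genes also differs between mouse strains.

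H2-M3, which presents formylated peptides of bacteria and mitochondria, stood at 4.20, 3.42, 3.74 and 5.02 CPM in controls and 3.26, 3.28, 3.32 and 4.98 CPM in HSC-PCK1-KO (log2 fold change -0.14, SE 0.18). Control 4 and HSC-PCK1-KO 4 were the highest here too. H2-Q4 stood at 41.9 to 69.9 CPM in controls and 47.2 to 74.4 CPM in HSC-PCK1-KO (-0.05, SE 0.18), and H2-T24 at 2.99 to 3.43 CPM against 2.53 to 5.47 CPM (0.23, SE 0.22). Both had their highest level in HSC-PCK1-KO 4.

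H2-Q1 followed another order. Its levels were 47.3, 14.2, 31.1 and 42.1 CPM in controls and 23.6, 49.7, 42.7 and 31.5 CPM in HSC-PCK1-KO (log2 fold change 0.13, SE 0.39). The highest liver was HSC-PCK1-KO 2 and the lowest control 2, a 3.5-fold range. The SD of log2 CPM within genotypes was 0.65 for H2-Q1, against 0.13 for H2-K1.

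Many H2-M genes were at or near 0. Of the 12 untested genes, 8 had 0 counts in all 8 libraries (H2-M1, H2-M9, H2-M11 and H2-M10.1 to H2-M10.5). H2-M10.6 had 1 count in all, H2-T3 had 2, H2-M5 had 1 to 4 per library, and H2-Ke6, which carries an H2- symbol but encodes a hydroxysteroid dehydrogenase, had 0 to 4 per library. Of the 100-base windows of H2-Ke6, 41.2% also occur in Gm20427, so its low counts do not show that the gene is silent. Of the tested genes, 5 had a mean under 1 CPM, and their log2 fold changes ran from -0.42 to 0.76, with the smallest unadjusted p for H2-Oa at 0.125, then H2-DMb2 and H2-Eb2 at 0.438 each in edgeR's quasi-likelihood test. H2-M2, also under 1 CPM, had the largest spread of the set, with 17, 1, 7 and 64 counts in controls and 4, 20, 6 and 65 counts in HSC-PCK1-KO. Its high libraries were again control 4 and HSC-PCK1-KO 4.

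B2m (ENSMUSG00000060802.9, chromosome 2), the light chain of every class I molecule, stood at 1214, 1381, 1232 and 1506 CPM in controls and at 1667, 1296, 1414 and 1456 CPM in HSC-PCK1-KO. The log2 fold change was 0.13 (SE 0.11, 95% interval -0.12 to 0.38). B2m was highest in HSC-PCK1-KO 1, the liver with the lowest class II levels. Across the 8 livers the relation of H2-K1 with B2m was weak (Pearson r = 0.124, exact permutation p = 0.774, adjusted 0.774 over 12 relations, Spearman's rho = 0.119, r without 2 livers -0.0628).

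The 3 immunoproteasome subunits shared 1 high liver. Psmb8 stood at 35.1, 30.4, 36.3 and 39.6 CPM in controls and 30.5, 29.5, 30.5 and 41.3 CPM in HSC-PCK1-KO (log2 fold change -0.10, SE 0.12). Psmb9 stood at 25.5 to 31.7 CPM against 23.8 to 40 CPM (0.05, SE 0.14) and Psmb10 at 29.98 to 34.7 CPM against 30.4 to 39.7 CPM (0.05, SE 0.10). In each, HSC-PCK1-KO 4 was the highest of the 8.

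Each of these subunits replaces a constitutive one, so their transcripts were set against each other as a ratio within each library, which needs no library scaling. The ratio is one of transcript levels, not corrected for length, and no protein was measured. The ratio of Psmb8 to Psmb5 was 0.743, 0.559, 0.67 and 0.965 in controls and 0.525, 0.613, 0.506 and 0.963 in HSC-PCK1-KO. Control 4 and HSC-PCK1-KO 4 were nearly equal and above the other 6. Psmb5 itself was lowest in these livers, at 41.0 and 42.9 CPM, against 47.2 to 60.3 CPM in the other 6. Psmb6 and Psmb7 were lowest there too, so high ratios in these livers also reflect low constitutive subunits. The log2 ratio of Psmb8 to Psmb5 differed by -0.19 between the genotypes (exact two-sided permutation p = 0.457, adjusted 0.971 over 3 ratios). The ratio of Psmb9 to Psmb6 was 0.192 to 0.294 in controls and 0.19 to 0.379 in HSC-PCK1-KO (exact p = 0.971), and that of Psmb10 to Psmb7 was 0.152 to 0.221 and 0.148 to 0.245 (exact p = 0.857), each with its highest value in HSC-PCK1-KO 4. The 70 ways to assign 4 of 8 livers allow no exact p below 0.0286.

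The 5 genes of transport, trimming and loading had a median SD of log2 CPM within genotypes of 0.17, beside 0.15 over all tested genes of at least 1 CPM. This SD ran from 0.11 for Tapbpl to 0.28 for Tap1. Tap1, a chain of the peptide transporter, stood at 42.4, 39.1, 50.1 and 47.9 CPM in controls and 39.9, 36.6, 42.4 and 64.1 CPM in HSC-PCK1-KO (log2 fold change 0.03, SE 0.17). HSC-PCK1-KO 4 was at 1.56 times the median of the 6 livers other than itself and control 4. Tap2, the other chain, stood at 31.04 to 39.7 CPM against 29.3 to 37.7 CPM (-0.11, SE 0.11). Tapbp stood at 75.0 to 91.2 CPM against 70.8 to 95.7 CPM (-0.04, SE 0.10), and Tapbpl, which encodes the related peptide editor TAPBPR, at 18.4 to 23.0 CPM against 21.2 to 22.8 CPM (0.10, SE 0.08). Erap1, the trimming peptidase, stood at 76.5 to 85.3 CPM against 68.9 to 104 CPM (0.03, SE 0.12).

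Nlrc5, the class I transactivator, stood at 22.9, 24.8, 28.1 and 30.9 CPM in controls and at 19.2, 23.0, 22.0 and 36.6 CPM in HSC-PCK1-KO (log2 fold change -0.08, SE 0.19). The highest liver was HSC-PCK1-KO 4 and the lowest HSC-PCK1-KO 1. Over the 11 genes of B2m, peptide supply, loading and transactivation, the median log2 fold change was 0.03, and over the 13 class I heavy chains -0.03, beside -0.0055 over all tested genes. Without HSC-PCK1-KO replicate 4 these medians were -0.13 and -0.19.

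HSC-PCK1-KO 4 was the highest library for 7 of these 11 genes and for 6 of 11 class I heavy chains of at least 1 CPM, where it was the highest for 13.4% of all tested genes of at least 1 CPM. The 20 interferon-induced genes listed outside the set summed to 966 CPM in HSC-PCK1-KO 4 and to 442.3 to 641 CPM in the other 7 libraries, a sum to which a few abundant genes contribute most. Each of them was highest in HSC-PCK1-KO 4 except Cxcl10, which was highest in control 4, at 13.3 CPM, against 10.9 CPM in HSC-PCK1-KO 4. Irf1, a transcription factor induced by interferon, was likewise highest in HSC-PCK1-KO 4 at 54.7 CPM, against 32.3 to 43.0 CPM elsewhere. The part of this library's interferon-induced genes in the class I levels was not tested.

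Over the 8 livers the relations of H2-K1 with Psmb8 (Pearson r = 0.701, exact p = 0.0358), Nlrc5 (r = 0.63, exact p = 0.0895) and Irf1 (r = 0.601, exact p = 0.128) did not pass after adjustment over the 12 relations (0.0716, 0.153 and 0.171). Spearman's rho was 0.667, 0.167 and -0.19 for these 3 (exact p = 0.0831, 0.703 and 0.665), and without HSC-PCK1-KO 4 and control 2, the livers farthest from the median of H2-K1, r was 0.346, 0.152 and -0.236. H2-Q10 with the hepatocyte gene Alb gave r = 0.587 (exact p = 0.124, adjusted 0.171) and rho = 0.476 (exact p = 0.243), and without HSC-PCK1-KO 4 and control 1 r was 0.336.

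**Figure D3:**
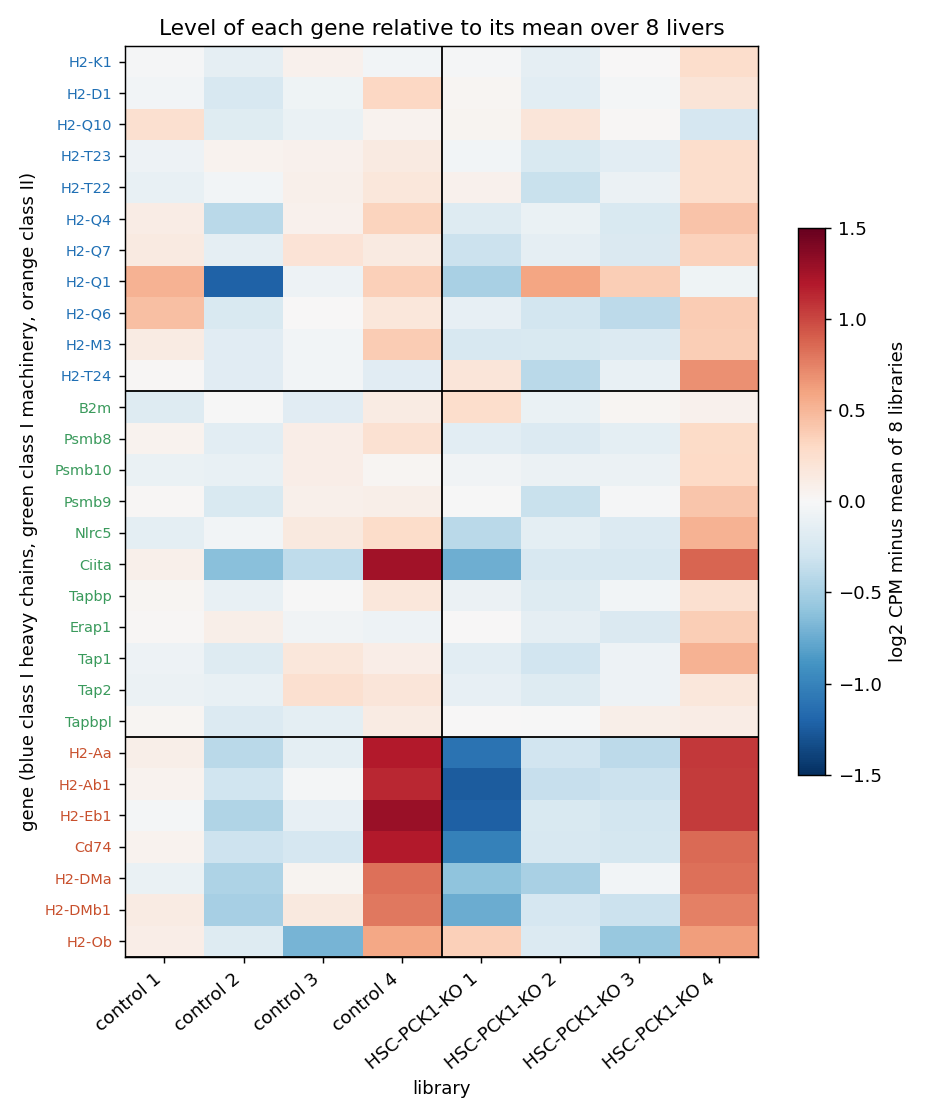
Log2 CPM minus the gene's mean over 8 livers (colour) for the 29 genes with a mean of at least 1 CPM (rows) in each library (columns, control on the left). The class II genes and Ciita are red in control 4 and HSC-PCK1-KO 4 and mostly blue in HSC-PCK1-KO 1, while most class I rows are pale apart from HSC-PCK1-KO 4.

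The class II genes varied between livers far more than between genotypes. Cd74 (ENSMUSG00000024610.16, chromosome 18), the invariant chain, stood at 75.1, 58.4, 61.1 and 166 CPM in controls and at 35.9, 61.4, 60.4 and 130.8 CPM in HSC-PCK1-KO. H2-Aa (ENSMUSG00000036594.16), the alpha chain of I-A, stood at 57.7, 40.7, 49.0 and 123.5 CPM in controls and at 25.0, 44.4, 41.1 and 113 CPM in HSC-PCK1-KO. H2-Ab1 (ENSMUSG00000073421.7), its beta chain, stood at 40.3, 31.8, 38.3 and 85.2 CPM in controls and at 16.4, 30.8, 31.2 and 80.8 CPM in HSC-PCK1-KO. In all 3 genes control 4 was highest, HSC-PCK1-KO 4 next and HSC-PCK1-KO 1 lowest, so each genotype held 1 high liver.

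H2-Eb1 (ENSMUSG00000060586.12), the beta chain of I-E, stood at 29.7, 22.2, 27.9 and 74.5 CPM in controls and at 12.96, 25.8, 25.1 and 62.6 CPM in HSC-PCK1-KO. The order of the extreme livers was the same. Its alpha chain partner, which the annotation names H2-Ea-ps as a defective gene of the reference strain, had 1 count in all 8 libraries, so H2-Eb1 transcripts were read without those of a partner. H2-Eb2, a second beta-type gene, had 3 to 24 counts per library.

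The log2 fold changes were -0.32 for Cd74 (SE 0.50, 95% interval -1.49 to 0.85), -0.28 for H2-Aa (SE 0.55), -0.30 for H2-Ab1 (SE 0.54, -1.58 to 0.98) and -0.29 for H2-Eb1 (SE 0.58). Without control replicate 4 these 4 values were 0.16, 0.19, 0.12 and 0.25, and without HSC-PCK1-KO replicate 4 they were -0.78, -0.88, -0.90 and -0.86. Without both libraries they were -0.30, -0.41, -0.49 and -0.32. The direction of the class II difference therefore turned with 1 liver.

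The peptide editors had the same high livers at lower levels. H2-DMa stood at 6.27, 4.86, 6.89 and 11.9 CPM in controls and at 4.38, 4.75, 6.50 and 11.9 CPM in HSC-PCK1-KO (log2 fold change -0.13, SE 0.38). H2-DMb1 stood at 5.68, 3.68, 5.77 and 8.999 CPM in controls and at 3.08, 4.34, 4.13 and 8.82 CPM in HSC-PCK1-KO (-0.24, SE 0.36). Of the 100-base windows of H2-DMb1, 13.7% also occur in H2-DMb2, whose own level was 0.40 to 0.87 CPM. H2-Ob, a chain of H2-O, stood at 1.28, 1.04, 0.72 and 1.80 CPM in controls and at 1.54, 1.03, 0.79 and 1.87 CPM in HSC-PCK1-KO (0.11, SE 0.33), and there HSC-PCK1-KO 1 was not low. H2-Oa, the other chain, had 4 to 26 counts per library and a log2 fold change of 0.76 (SE 0.45, unadjusted p 0.125 in edgeR's quasi-likelihood test).

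Ciita stood at 1.99, 1.20, 1.44 and 4.56 CPM in controls and at 1.12, 1.59, 1.58 and 3.48 CPM in HSC-PCK1-KO (log2 fold change -0.25, SE 0.49). Its high and low livers were those of the class II chains. For Ciita, control 4 was at 3.02 times and HSC-PCK1-KO 4 at 2.30 times the median of the other 6 livers, and the same ratios ran from 2.12 to 2.93 and from 2.08 to 2.65 for Cd74, H2-Aa, H2-Ab1, H2-Eb1, H2-DMa and H2-DMb1. HSC-PCK1-KO 1 stood at 0.502 to 0.71 of the median of the remaining 5 livers for these 6 genes.

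**Figure D4:**
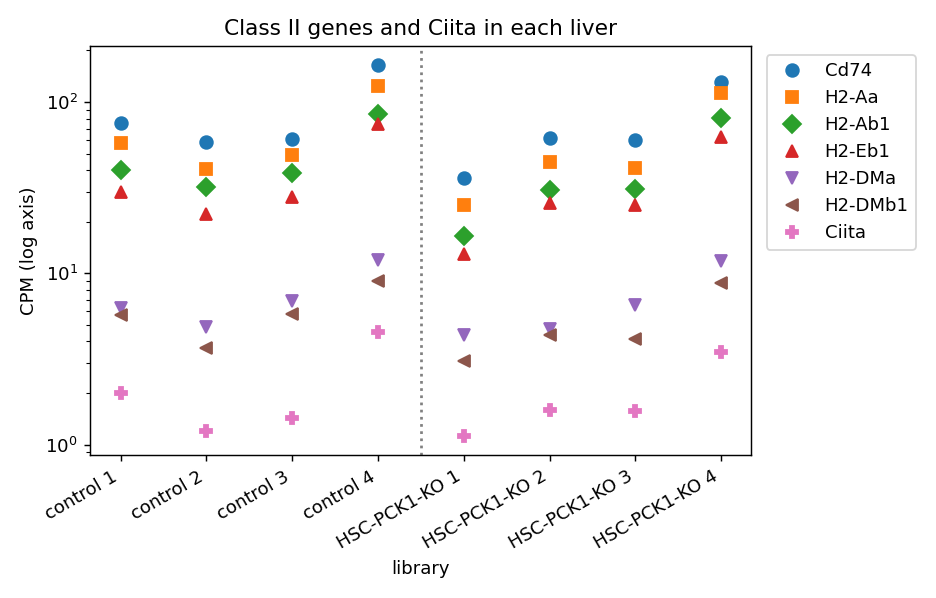
CPM (log axis) of 6 class II genes and Ciita in each of the 8 livers (horizontal axis), control to the left of the dotted line. All 7 genes are highest in control 4, next in HSC-PCK1-KO 4 and lowest in HSC-PCK1-KO 1.

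H2-Ab1 and Cd74, on different chromosomes, followed each other closely over the 8 livers (Pearson r = 0.984, exact permutation p = 0.000298, adjusted 0.00358 over 12 relations, Spearman's rho = 0.833 with an adjusted p of 0.0924). Over the 6 livers without control 4 and HSC-PCK1-KO 4, r was 0.966. H2-Ab1 with Ciita gave r = 0.931 (exact p = 0.00117, adjusted 0.00702, rho = 0.786 with an adjusted p of 0.112), and 0.723 over those 6 livers. These relations compare whole livers and say nothing of single cells.

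Markers of the cells that make class II were set beside these levels. The 8 dendritic cell markers summed to 15.1, 10.3, 14.4 and 24.8 CPM in controls and to 10.8, 16.1, 14.6 and 18.1 CPM in HSC-PCK1-KO, with control 4 and HSC-PCK1-KO 4 the highest. The 8 markers of recruited macrophages and monocytes summed to 49.8, 17.1, 30.7 and 82.4 CPM and to 29.5, 60.1, 47.7 and 55.1 CPM, with HSC-PCK1-KO 4 below HSC-PCK1-KO 2. A few abundant genes contribute most to both sums, such as Cd9 with 33.5 CPM in HSC-PCK1-KO 4. That liver was below HSC-PCK1-KO 2 for Mmp12, Gpnmb, Trem2 and Cx3cr1 and above it for Cd9, Ccr2, Ly6c2 and Itgam. Among dendritic cell markers it was below HSC-PCK1-KO 2 for Itgax, Ccr7 and Cd209a and above it for the rest. The 6 Kupffer cell markers summed to 349, 314, 282 and 449 CPM and to 465, 239, 280 and 384 CPM, and HSC-PCK1-KO 1, the lowest liver for class II, was the highest. The 8 T cell markers summed to 3.90 to 6.43 CPM in controls and 3.76 to 8.07 CPM in HSC-PCK1-KO, and the 6 natural killer cell markers to 1.09 to 4.10 CPM and 1.54 to 2.72 CPM, each highest in control 4 or HSC-PCK1-KO 4. The part of these cells in the class II levels was not tested.

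B cells, which also carry class II, had another order. Their 7 markers summed to 6.19, 3.11, 3.40 and 4.92 CPM in controls and to 8.91, 4.304, 4.70 and 5.37 CPM in HSC-PCK1-KO, so HSC-PCK1-KO 1, lowest in class II, was highest in B cell markers. All 7 had a positive log2 fold change, where 51.8% of all tested genes had a negative one. Only Pax5, at 9 to 32 counts per library, had an unadjusted p under 0.05 in edgeR and groups that did not overlap. Over all tested genes, 2.36% had such a p and 1.53% did not overlap. None of the 7 passed after adjustment in edgeR. Of the 12 relations, H2-Ab1 with the B cell gene Cd79a gave r = -0.457 (exact permutation p = 0.253, adjusted 0.304). H2-Ab1 with the monocyte receptor gene Ccr2 gave r = 0.786 (exact p = 0.0211, adjusted 0.0633), with Itgax, which encodes CD11c of dendritic cells and some macrophages, r = 0.74 (exact p = 0.0351, adjusted 0.0716), and with the macrophage gene Adgre1 r = 0.118 (exact p = 0.763, adjusted 0.774). Without control 4 and HSC-PCK1-KO 4 these 4 values were -0.811, 0.505, 0.568 and -0.666. Spearman's rho over all 8 livers was -0.238, 0.833, 0.429 and 0.238 (exact p = 0.582, 0.0154, 0.299 and 0.582), and adjusted over the 12 relations none of the rho values passed.

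The spread between livers of the same genotype was larger in class II than in the rest of the set by its median, but the ranges overlapped. The SD of log2 CPM within genotypes had a median of 0.68 over the 10 class II genes, 0.27 over the 13 class I heavy chains and 0.19 over the 11 genes of B2m, peptide supply, loading and transactivation, beside 0.19 over all tested genes. It ran from 0.34 to 0.85 in class II, from 0.13 to 1.67 in class I heavy chains and from 0.11 to 0.76 in the 11 genes. A wide spread was not particular to class II, as the median SD was 0.81 over the recruited macrophage and monocyte markers and 0.61 over the dendritic cell markers. The SD of single genes is given next. It was 0.85 for H2-Eb1, 0.81 for H2-Aa, 0.80 for H2-Ab1, 0.73 for Cd74 and 0.76 for Ciita, and between 1.65% and 2.39% of all tested genes of at least 1 CPM had a larger one. B2m (0.15), H2-K1 (0.13) and Tapbpl (0.11) were at or below the middle of all genes, with 52.5%, 60.6% and 71.4% of genes more variable.

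**Figure D5:**
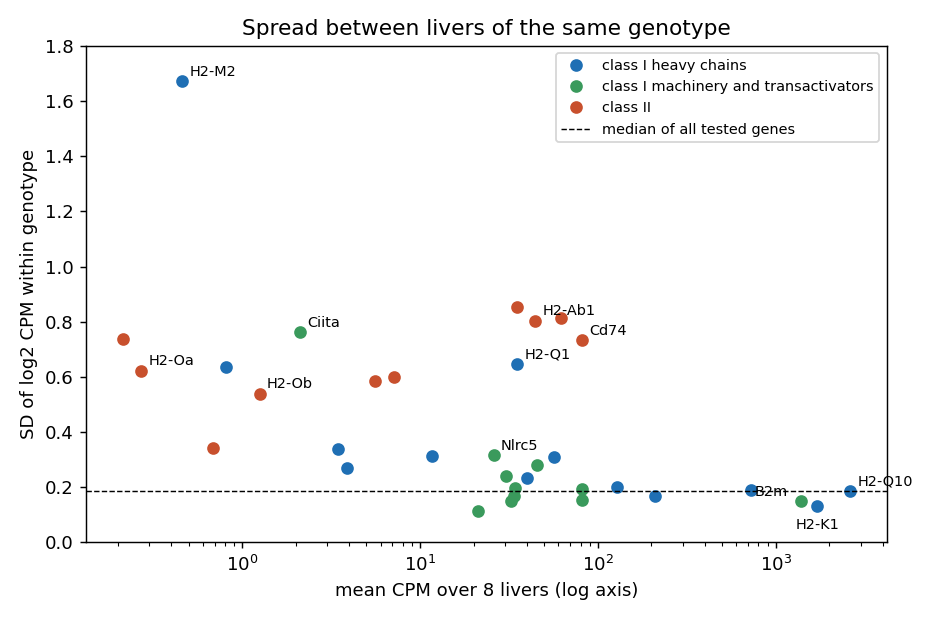
SD of log2 CPM within genotypes (vertical axis) against mean CPM over 8 livers (log axis) for the 34 tested genes. The class II chains, Cd74, Ciita and H2-Q1 lie at 0.65 to 0.85, above the dashed median of all tested genes at 0.19, while B2m, H2-K1 and H2-Q10 lie near or below it.

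Genes that serve these pathways were taken from lists by function. In each of 8 lists, 0 genes passed an adjusted p of 0.05 with edgeR's quasi-likelihood test, as did 0 of all 15669 tested genes. An unadjusted p under 0.05 was found in 1 of 8 genes of the complex on the X and Y boxes and in 1 of 10 MHC-like genes. It was found in 0 genes of the other 6 lists and in 2.36% of all tested genes. Creb1, which binds the X2 box, stood at 13.5 to 14.4 CPM in controls and 14.6 to 16.3 CPM in HSC-PCK1-KO, a log2 fold change of 0.17 (SE 0.07, unadjusted p 0.0284, adjusted 0.9998 in edgeR). Its groups did not overlap, as was the case for 1.53% of all tested genes. Nfya, a Y box binding subunit, had a log2 fold change of -0.16 (SE 0.11). The 8 genes of RFX, NF-Y and CREB summed to 137 to 142 CPM in controls and 136 to 149 CPM in HSC-PCK1-KO.

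Mr1, which presents vitamin metabolites to mucosal-associated invariant T cells, stood at 7.67, 5.12, 6.57 and 7.28 CPM in controls and at 5.79, 5.27, 4.97 and 5 CPM in HSC-PCK1-KO, a log2 fold change of -0.34 (SE 0.14, unadjusted p 0.0292, adjusted 0.9998 in edgeR's quasi-likelihood test). Control 2 lay inside the range of HSC-PCK1-KO. Mill2, another MHC-like gene, had a log2 fold change of -0.20 (SE 0.19). Of the 10 MHC-like genes tested, 4 were lower and 6 higher.

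In the other lists the medians lay near 0. Median log2 fold changes were -0.08 over the 5 class I assembly chaperones, 0.04 over 8 constitutive proteasome subunits and activators, 0.0086 over 10 class II processing genes, -0.02 over 11 interferon-gamma signalling genes, 0.0071 over 20 interferon-induced genes and 0.0021 over 8 costimulatory and checkpoint ligands. Their genes of smallest p had log2 fold changes of -0.23 for Hspa5 and -0.12 for Uggt1 (chaperones), 0.12 for Psme1 and -0.07 for Psme3 (proteasome activators), 0.09 for Ctsh and 0.08 for Ctsb (lysosomal proteases), -0.22 for Irf8 and -0.06 for Jak1 (interferon signalling), -0.21 for Isg15 and -0.23 for Ifit1 (interferon-induced) and -0.42 for Havcr2 and 0.18 for Cd83 (ligands and receptors of T cells), and none passed in edgeR. The constitutive subunits Psmb5, Psmb6 and Psmb7 had log2 fold changes of 0.09, 0.04 and 0.0085. Ifng itself, at 0 to 3 counts per library, had too few to be tested.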

How the data were processed

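Whole liver mRNA was sequenced in 8 libraries, 4 control and 4 HSC-PCK1-KO, grouped by the genotype label. The authors deposited raw whole-number counts per gene and library. The build was GRCm39 and R 4.3.2 was used, per the submitters' processing notes. No source used here gives the aligner, the counter, its strand setting or how it handled reads with several matches. Symbols came by identifier from GENCODE M21, on GRCm38, for 52029 of 56953 identifiers, so coordinates are printed for RefSeq promoter windows only.

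In R 4.3.3, edgeR 4.0.16 (TMM, filterByExpr, robust quasi-likelihood, genotype only) tested 15669 genes with Benjamini-Hochberg adjustment over all of them at 0.05. Log2 CPM used a prior count of 2. Intervals are 95%. Every tested gene of the set with a mean of at least 1 CPM was named, then the 3 of smallest p below that, and the 2 of smallest p per pathway list. The genes and lists were chosen with earlier results of these data known. Replicates differed pairwise by more than counting noise (chi-square per degree of freedom 44.4 to 168). Arithmetic was tested on simulated data. The alternatives were upper quartile and RLE factors, no filter, 1 CPM in 4 libraries, DESeq2 1.42.0, limma 3.58.1 voom with sample weights, a prior count of 0.5 in the proteasome ratios, the replicate number as a block, and each library left out. Leaving out control 4 and HSC-PCK1-KO 4 together, and transcript length, were added after the data were seen. The H2 pseudogenes of the annotation were left out by the rule. They include H2-Q5 and H2-T10, which the annotation calls polymorphic pseudogenes and which had 218 to 539 and 141 to 304 counts per library. Some of the items fixed for this work are not reported here.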

Additional observations from a re-analysis of the deposited data

Results flagged for a closer look

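Within a group of 4 livers, a value was singled out where its distance to the nearest other liver took up more of the group's whole range than Dixon's critical value at the 95% level. Of 70 groups checked (the genes of the set named by the rule and the 3 proteasome ratios, in each genotype), 7 met this, where chance gives about 1 in 20, or 3.5.

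The class II genes Cd74, H2-Ab1 and H2-Eb1 stood out in control 4. Cd74 was at 165.6 CPM, against 58.4 to 75.1 CPM in the other 3 controls. H2-Ab1 was at 85.16 CPM, against 31.8 to 40.3 CPM, and H2-Eb1 at 74.5 CPM, against 22.2 to 29.7 CPM.

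In HSC-PCK1-KO 4 the genes that met this rule belonged to class I, although class II genes were further above the other livers there. H2-Aa, H2-Ab1 and H2-Eb1 stood at 2.65, 2.57 and 2.46 times the median of the 6 livers other than itself and control 4. The class I genes that met the rule stood at 1.31 to 1.49 times it. Psmb8 was at 41.3 CPM, against 29.5 to 30.5 CPM in the other 3 HSC-PCK1-KO livers, and Psmb10 at 39.71 CPM, against 30.4 to 31.2 CPM. H2-Q4 was at 74.39 CPM, against 47.2 to 51.7 CPM, and H2-M3 at 4.979 CPM, against 3.26 to 3.32 CPM.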

How the results depend on the processing

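No gene of the set passed an adjusted p of 0.05 under any alternative run. The number at an unadjusted p under 0.05 ranged from 0 to 5 when 1 library was left out and was 1 without both control 4 and HSC-PCK1-KO 4. The number with a negative log2 fold change ranged from 7 to 28. The 3 group medians, which carry no test, changed sign when 1 library was left out, with ranges of -0.13 to 0.07 for B2m, peptide supply, loading and transactivators, -0.19 to 0.06 for class I heavy chains and -0.59 to 0.19 for class II. With 4 libraries a group, the 95% interval excluded a 2-fold difference in both directions for 2 of 10 class II genes.

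Signs of small differences turned under some settings. With limma-voom the log2 fold changes were -0.025 for Erap1, -0.0014 for H2-D1, 0.017 for H2-Q10, -0.0018 for Psmb10, -0.048 for Psmb9 and -0.080 for Tap1. Without both control 4 and HSC-PCK1-KO 4 they were -0.14 for Erap1, -0.015 for H2-K1, 0.082 for H2-Q10, -0.033 for H2-T24, -0.043 for Psmb10, -0.068 for Psmb9 and -0.15 for Tap1, and the log2 ratio of Psmb10 to Psmb7 differed by -0.016. The cause was not tested.

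Leaving out 1 library turned the sign of more, over these ranges of log2 fold change: Cd74 -0.78 to 0.16, Ciita -0.69 to 0.33, Erap1 -0.11 to 0.10, H2-Aa -0.88 to 0.19, H2-Ab1 -0.90 to 0.12, H2-D1 -0.061 to 0.13, H2-DMa -0.53 to 0.20, H2-DMb1 -0.65 to 0.016, H2-Eb1 -0.86 to 0.25 and H2-Eb2 -0.73 to 0.094. The ranges were -0.011 to 0.13 for H2-K1, -0.12 to 0.37 for H2-Ob, -0.12 to 0.34 for H2-Q1, -0.076 to 0.075 for H2-Q10, -0.23 to 0.060 for H2-Q4, -0.13 to 0.062 for H2-T22, -0.0059 to 0.38 for H2-T24, -0.32 to 0.028 for Nlrc5, -0.057 to 0.093 for Psmb10, -0.10 to 0.16 for Psmb9, -0.18 to 0.12 for Tap1 and -0.13 to 0.021 for Tapbp. The log2 ratios ranged from -0.13 to 0.14 for Psmb10 to Psmb7 and from -0.22 to 0.11 for Psmb9 to Psmb6.

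The titles number the libraries 1 to 4 in each genotype. Same-numbered libraries deviated from their group means with correlations of -0.0333, -0.329, -0.0589 and 0.0576 over all tested genes. These values showed no pairing by number, but values from so few libraries cannot exclude one. The labels state none. With the replicate number as a block, 0 genes of the set had an unadjusted p under 0.05 (311 of all genes, 1.98%), 21 were lower in HSC-PCK1-KO, and Tap1 was at -9.263e-05 on the log2 scale.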
